A study of Mus musculus with 16 samples.

Results

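Ligature plus trauma was compared with trauma alone, which asks what a ligature changes in the tissue around teeth that already carry an overload. The comparison takes 8 of the 16 libraries in the study, 4 per group, chosen by their labels. All mice were male, wild-type C57BL/6J, 9 weeks old. Both groups had the maxillary left second molar raised with composite resin, and the ligature plus trauma group also had a 6-0 silk thread around that tooth. The labels give periodontal ligament as the tissue, while the series title speaks of bone. The labels number the libraries within a group without saying that each came from 1 mouse, so the p-values reflect only how far these libraries vary, and part of that variation may be technical.

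The periodontal ligament is the collagen-rich tissue that holds a tooth root in its socket, and its fibroblasts and the neighbouring bone cells remodel the socket under load. Bone is removed by osteoclasts, multinucleated cells that form from monocyte-lineage precursors under RANKL (Tnfsf11) and are restrained by the decoy receptor osteoprotegerin (Tnfrsf11b). A ligature holds bacterial plaque against the gum and is a standard way to bring on periodontitis in mice.

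Poly(A) RNA was sequenced, and the deposited values are read counts per gene. Total counts ran from 58458102 to 77316734 in trauma and from 59845593 to 72301909 in ligature plus trauma. Levels are given as CPM, the usual depth-scaled count, after trimmed-mean scaling. Differences are log2 fold changes of ligature plus trauma over trauma, with their standard error (SE), from edgeR's quasi-likelihood test with Benjamini-Hochberg adjustment, and a gene is called at an adjusted p under 0.05. On the 1000 most variable genes the leading principal component held 54.54% of the variance, with all 4 trauma libraries on the negative side and all 4 ligature plus trauma libraries on the positive side. Postn, the matrix protein periostin that marks periodontal ligament fibroblasts, was at 9305 to 30890 CPM in the 8 libraries. Ligature plus trauma 2 and 3 held 17.43% and 18.7% of their counts in genes with transcripts under 1000 bases, against 8.227% and 9.103% in ligature plus trauma 1 and 4 and 9.156% to 14.66% in trauma. Values without those 2 libraries and a ligature library with the same shift are given beside the results they change, as without the 3 short-transcript libraries. In bulk tissue, fewer cells of a type and less RNA per cell cannot be told apart.

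Of 20953 genes tested, 1149 were called (5.48%): 464 were higher with the ligature (2.21%) and 685 lower (3.27%). Of these, 1047 differed at least 2-fold, 128 were at least 4-fold higher and 440 at least 4-fold lower. The CPM ranges of the groups did not overlap for 433 of the higher and 633 of the lower genes, where 5.74% and 7.31% of all tested genes had ranges apart upward and downward. The median log2 fold change of all tested genes was -0.02, and 0.16 with the transcript-length trend removed, a shift that the counts from that fit carry. The split depended on the processing: 40.38% of the calls were higher here, against 61.02% with the transcript-length trend removed (1301 higher, 831 lower), 61.04% without the 3 short-transcript libraries (246 higher, 157 lower) and 54.29% with limma-voom sample weights. No called gene changed direction in any of the 17 alternative fits. The count fell to 714 without trauma 1, 575 without trauma 3, 576 without ligature plus trauma 2, 565 without ligature plus trauma 3 and 686 without ligature plus trauma 4. For the list counts below, the shares over all tested genes were 2.21% higher and 3.27% lower. Genes named below were called in all 17 alternative fits unless a value says otherwise. Of the 10 largest rises named by fold, 9 were called in every fit, against 0 of the 10 largest falls.

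Among called genes whose log2 CPM averaged 2 or more and whose groups were apart, the largest rises were in a matrix protease and an acute-phase protein. Mmp3, stromelysin, a fibroblast protease that cleaves matrix and activates other proteases, was at 1.75, 9.87, 3.72 and 0.665 CPM in trauma 1 to 4. In ligature plus trauma 1 to 4 it was at 445, 886, 960 and 398 CPM, and no value came near the trauma range. The rise was 7.39 ± 0.78 on the log2 scale (SE; edgeR adjusted p = 0.000385). Saa3, a serum amyloid A made in inflamed tissue, was at 24.1, 139.9, 65.3 and 64.6 CPM in trauma. With the ligature it was at 4335, 10350, 20660 and 1942 CPM, lowest in library 4 and highest in library 3 but well apart from trauma (6.99 ± 0.84, edgeR adjusted p = 0.000979).

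The 250 bases before the start site are shown for Mmp3 and Saa3, the pair with the largest rises under that limit, and for Lor, a gene of the epithelial barrier among the largest falls under it. They are RefSeq sequences on build GRCm38.p6, read 5′ to 3′ on the strand of the gene, at chr9:7445572-7445821 (plus strand), chr7:46715677-46715926 (minus) and chr3:92083143-92083392 (minus). Capitals mark matches on either strand to the letters of 3 motifs: GGANNTTCC (kappa-B-like), TGANTCA (AP-1-like) and TTGCNNAA (C/EBP-like).
Mmp3: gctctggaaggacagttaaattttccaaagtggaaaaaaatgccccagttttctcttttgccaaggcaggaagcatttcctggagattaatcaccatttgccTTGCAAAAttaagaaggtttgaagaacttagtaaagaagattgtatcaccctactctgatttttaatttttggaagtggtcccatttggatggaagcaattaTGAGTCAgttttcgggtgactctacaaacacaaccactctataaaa
Saa3: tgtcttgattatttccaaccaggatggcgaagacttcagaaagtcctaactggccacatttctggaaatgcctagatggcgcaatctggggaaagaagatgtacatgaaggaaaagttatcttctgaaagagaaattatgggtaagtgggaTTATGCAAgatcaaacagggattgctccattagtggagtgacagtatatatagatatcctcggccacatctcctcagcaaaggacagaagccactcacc
Lor: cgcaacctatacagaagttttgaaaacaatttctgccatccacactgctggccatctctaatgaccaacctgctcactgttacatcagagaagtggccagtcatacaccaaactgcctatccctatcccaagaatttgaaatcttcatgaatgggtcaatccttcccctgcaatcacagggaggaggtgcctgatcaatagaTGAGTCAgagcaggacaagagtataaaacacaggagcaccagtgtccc
Mmp3 has 1 C/EBP-like match starting 148 bases and 1 AP-1-like match starting 46 bases before its start. Saa3 has a C/EBP-like match starting 99 bases before its start, and Lor an AP-1-like match 48 bases before. Of the 20 genes named by fold, 17 had such a window. Among 8 that rose, 4 held the C/EBP-like letters, 2 the AP-1-like and 0 the kappa-B-like, and among 9 that fell the numbers were 2, 4 and 1. Of 27025 RefSeq promoters of the same length, 9.55%, 6.87% and 3.56% held them. A letter match is a description of the sequence, not a site in use.

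The other genes with the largest rises under the same limit belong to growth signalling, vessels, myeloid cells and metabolism. Fgf7, a fibroblast growth factor that acts on epithelial cells, had the lowest p of all genes. It was at 30.8, 47.3, 41.8 and 40.8 CPM in trauma and 463.9, 339.1, 311.8 and 241.8 CPM with the ligature (3.08 ± 0.22, edgeR adjusted p = 4.04e-06), with tight groups far apart. S100a4, a calcium-binding protein of fibroblasts and myeloid cells, was at 19.6 to 33.6 CPM in trauma. With the ligature it was at 81.6, 473.9, 450.9 and 98.04 CPM, so libraries 2 and 3 stood far above 1 and 4 (3.25 ± 0.71, edgeR adjusted p = 0.0153). Without the 3 short-transcript libraries its log2 fold change was 1.63 and stayed called (edgeR adjusted p = 0.0297). Bdh2, a short-chain dehydrogenase linked to iron handling, rose by 3.26 ± 0.51. Dio2, the deiodinase that activates thyroid hormone, rose by 3.02 ± 0.53, and Lat2, an adaptor of immune-receptor signalling, by 3.06 ± 0.43. Rln1, a relaxin, was the third of these by fold (3.67 ± 0.94, edgeR adjusted p = 0.0315). It was not called without trauma 1 (edgeR adjusted p = 0.0659), trauma 2 (0.0703), trauma 3 (0.0975), ligature plus trauma 2 (0.0762), ligature plus trauma 3 (0.0853) or the 3 short-transcript libraries (0.199).

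**Figure D1:**
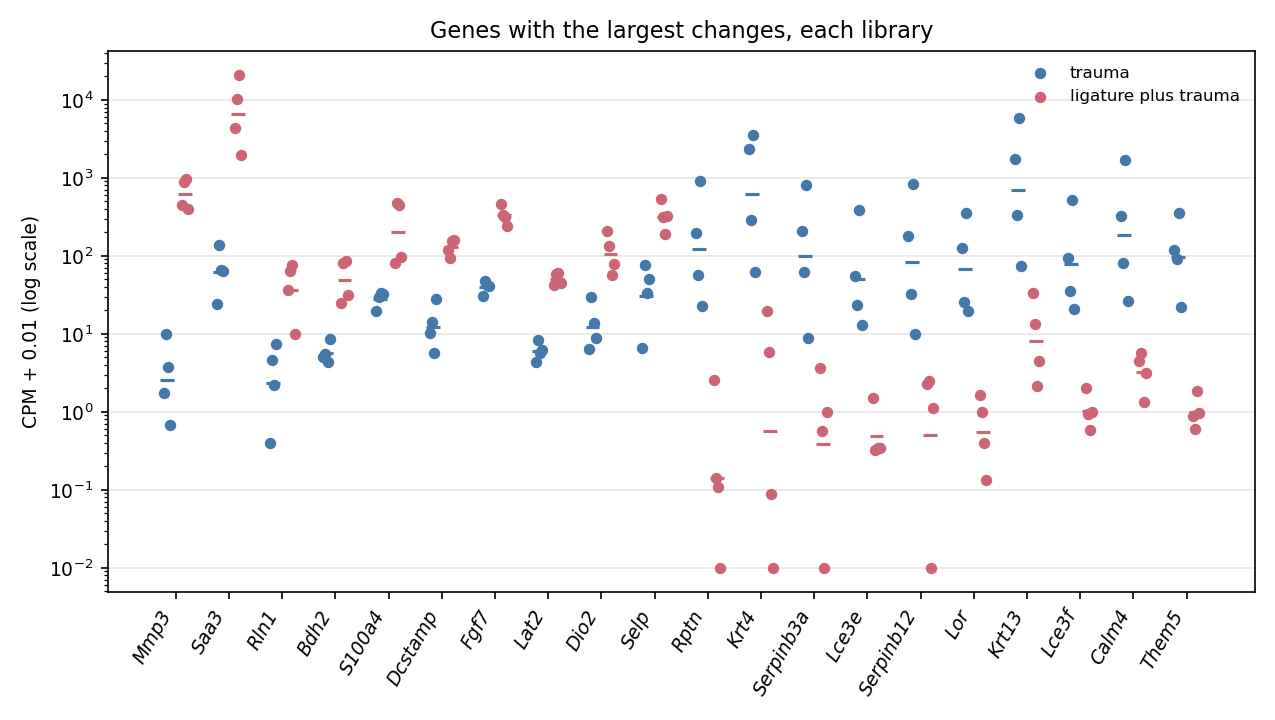
CPM plus 0.01 on a log scale in each library for the 10 genes with the largest rises and the 10 with the largest falls among called genes whose log2 CPM averaged 2 or more and whose groups were apart, blue for trauma and red for ligature plus trauma, with a bar at the geometric mean. Mmp3 and Saa3 are far above every trauma library, and the epithelial genes on the right spread widely within trauma.

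Genes of bone-resorbing osteoclasts rose together. Of 16 genes for resorption and ion transport, 11 were called higher and 0 lower, with a median log2 fold change of 1.93 against -0.02 over all genes; 12 of the 16 had groups apart. The count was 10 or 11 with any 1 library left out and 11 without the 3 short-transcript libraries. Ctsk, cathepsin K, the collagen-degrading protease of osteoclasts, was at 1287, 1577, 863.1 and 2416 CPM in trauma and 6427, 6604, 7988 and 7736 CPM with the ligature. Trauma 4 was the highest of its group yet lay well below the lowest ligature library (2.23 ± 0.40, edgeR adjusted p = 0.00566). Tcirg1 and Atp6v0d2, subunits of the proton pump that acidifies the resorption pit, rose by 2.21 ± 0.27 (edgeR adjusted p = 0.000979) and 2.66 ± 0.49 (0.00703). Tcirg1 was at 16.8 to 35.5 CPM in trauma and 99.1 to 157.2 CPM with the ligature, and Atp6v0d2 at 34.01 to 158 and 469.9 to 660.4 CPM.

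Itgb3, the integrin subunit of the osteoclast's seal on bone, rose by 2.35 ± 0.45, and Slc4a2, the bicarbonate exchanger that balances acid export, by 1.41 ± 0.30. Snx10, a sorting nexin needed for the osteoclast's ruffled border, rose by 2.16 ± 0.40. Ckb, the brain-type creatine kinase that osteoclasts use for energy, rose by 2.13 ± 0.31, and Slc37a2, a sugar-phosphate transporter high in osteoclasts, by 2.50 ± 0.47. Mmp9, the gelatinase of osteoclasts and neutrophils, was at 238.9, 360.9, 206.3 and 492 CPM in trauma and 1018, 791.8, 880.5 and 1657 CPM with the ligature (1.74 ± 0.33, edgeR adjusted p = 0.00729). Acp5, tartrate-resistant acid phosphatase, the classical osteoclast stain, rose by 2.12 ± 0.45 (edgeR adjusted p = 0.0132). The 4 Acp5 values with the ligature, 2061 to 2582 CPM, all exceeded the highest in trauma, 1011 CPM. Without the 3 short-transcript libraries its log2 fold change was 2.11 but the call was lost (edgeR adjusted p = 0.0743). Ctsb, a cathepsin of many cells, was not called (0.29 ± 0.23).

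Of 16 genes for osteoclast formation and fusion, 8 were called higher and 0 lower (median 1.46); 9 had groups apart. Dcstamp and Ocstamp, membrane proteins needed for precursors to fuse, rose by 3.19 ± 0.48 (edgeR adjusted p = 0.00258) and 2.87 ± 0.40 (0.00168). Dcstamp was at 10.4, 14.0, 5.64 and 27.8 CPM in trauma and 119.3, 94.5, 155.5 and 158.2 CPM with the ligature. Every ligature value lay far above every trauma value. Oscar, a costimulatory collagen receptor, rose by 2.49 ± 0.50, and Spi1, the myeloid transcription factor PU.1, by 2.08 ± 0.28. Tnfrsf11a, the RANKL receptor RANK (2.13 ± 0.49), and Nfatc1, the master transcription factor of osteoclasts (1.62 ± 0.41), were called. Both lost the call when some single libraries were left out. In those fits the log2 fold change was 1.68 to 2.07 for Tnfrsf11a and 1.29 to 1.73 for Nfatc1. The edgeR adjusted p of Tnfrsf11a was 0.0536 without trauma 1, 0.0621 without trauma 3 and 0.0611 without ligature plus trauma 4. Nfatc1 was not called when any 1 library other than ligature plus trauma 2 or 3 was left out, with an edgeR adjusted p of up to 0.0946 (without trauma 3). Jdp2, a factor of the AP-1 family, lost its call when any 1 library other than trauma 4 or ligature plus trauma 1 was left out (edgeR adjusted p of up to 0.0774, without trauma 3) and without the 3 short-transcript libraries (0.191). The count of called genes was 4 without trauma 1 or trauma 3, and 5 without trauma 2 or ligature plus trauma 4.

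**Figure D2:**
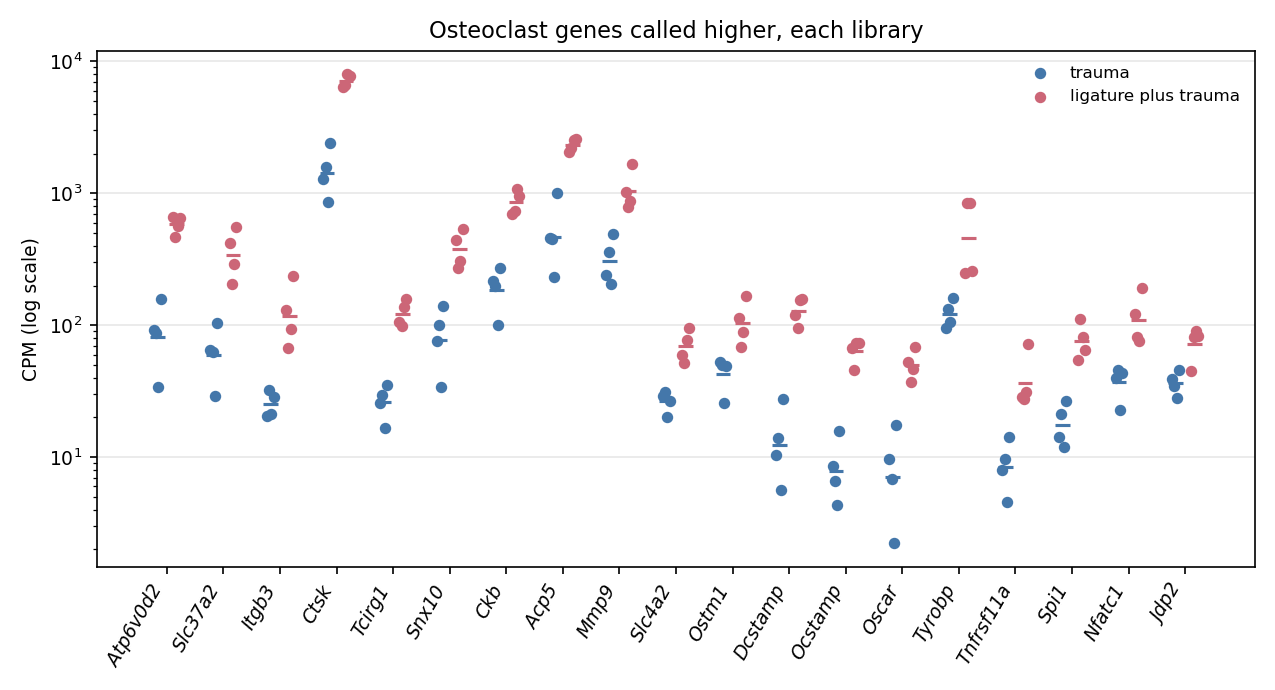
CPM on a log scale in each library for the 19 osteoclast genes called higher, the 11 of resorption on the left and the 8 of formation on the right, with geometric means as bars. The red points (ligature plus trauma) lie above all the blue ones (trauma) in 18 of the 19 genes; in Jdp2 the groups overlap.

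Of 19 ligands, receptors and inhibitors that act on osteoclast formation, 0 were called higher and 1 lower, close to the shares of all genes (2.21% and 3.27%). The median log2 fold change was 0.54, with 13 of the 19 positive. Tnfsf11, which encodes RANKL, was at 5.48, 87.9, 17.3 and 116.6 CPM in trauma and 87.8, 88.4, 102.6 and 82.7 CPM with the ligature. Trauma 1 and 3 were low and trauma 2 and 4 were as high as the ligature libraries, so the groups overlapped (0.67 ± 0.72, 95% interval -0.85 to 2.19, edgeR adjusted p = 0.683). Tnfrsf11b, osteoprotegerin, had a log2 difference of -0.69 ± 0.39 (edgeR adjusted p = 0.367). Csf1, the macrophage growth factor, had a difference of 0.18 ± 0.28. Il34, another ligand of the CSF1 receptor, was the member that fell. It was at 49.7, 30.6, 44.8 and 44.7 CPM in trauma and 15.6, 12.2, 9.93 and 10.5 CPM with the ligature, a fall of every library below the trauma range (-1.82 ± 0.24, edgeR adjusted p = 0.0016).

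Genes of bone formation were lower or not called. Of 19 osteoblast genes, 0 were higher and 4 lower, with a median log2 fold change of -0.56, and 7 had groups apart downward. Over all tested genes 3.27% were lower and 7.31% had groups apart downward. Ifitm5, a bone-restricted membrane protein of mineralising osteoblasts, was at 76.6, 72.2, 72.2 and 77.2 CPM in trauma and 9.29, 12.1, 19.1 and 14.4 CPM with the ligature. The trauma values were nearly equal and all far above the ligature values (-2.44 ± 0.48, edgeR adjusted p = 0.00959). Smpd3, the sphingomyelinase needed for matrix mineralisation, fell by 2.58 on the log2 scale (SE 0.55, edgeR adjusted p = 0.0135), and its call was lost without the 3 short-transcript libraries (log2 fold change -2.06, edgeR adjusted p = 0.144). Bglap2, a near copy of the osteocalcin gene whose reads cannot be assigned with certainty, fell by 1.45 (edgeR adjusted p = 0.0319), but was not called when any 1 library other than trauma 4 or ligature plus trauma 3 was left out, with an edgeR adjusted p of up to 0.093 (without ligature plus trauma 4). The count of lower osteoblast genes was 2 without trauma 1, ligature plus trauma 2 or the 3 short-transcript libraries. Bglap, osteocalcin, was at 3232, 2141, 1716 and 1795 CPM and 812.4, 1115, 1348 and 685.9 CPM. Its groups did not overlap, but it was not called (-1.17 ± 0.36, edgeR adjusted p = 0.0777). It was called with DESeq2 (adjusted p = 0.0235), in edgeR on the 8 libraries alone (0.0496) and with the transcript-length trend removed (limma, 0.025). None of 10 osteocyte genes was called; Sost, sclerostin, had a difference of -2.15 ± 1.03 (edgeR adjusted p = 0.265).

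In the matrix of the ligament, Postn was not called (0.15 ± 0.45, edgeR adjusted p = 0.906). Thbs4, a thrombospondin of tendon and ligament matrix, was at 1441, 988.9, 1038 and 1723 CPM in trauma and 249, 111.9, 128.6 and 171.2 CPM with the ligature, apart in every library (-2.97 ± 0.36, edgeR adjusted p = 0.000979). Col12a1, a collagen that binds fibril surfaces, rose by 1.24 ± 0.25 (edgeR adjusted p = 0.0101). Tnmd, tenomodulin, a marker of tendon cells, fell by 1.53 (SE 0.30, edgeR adjusted p = 0.00916), but the call was lost without the 3 short-transcript libraries (log2 fold change -1.49, edgeR adjusted p = 0.0666). Of 21 ligament and tendon fibroblast genes 2 were higher and 2 lower; the median was -0.10, and 0.21 without the 3 short-transcript libraries.

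Mmp13, the collagenase of bone and inflamed ligament, was at 1302, 3616, 804.2 and 2557 CPM in trauma and 12200, 6912, 8175 and 14070 CPM with the ligature (2.32 ± 0.56, edgeR adjusted p = 0.0246). Its edgeR adjusted p was 0.0744 without trauma 1, 0.0744 without trauma 3 and 0.063 without ligature plus trauma 4. The log2 fold change in those fits was 2.05 to 2.15. Timp1, an inhibitor of matrix metalloproteases, rose from 88.4, 286.4, 163.4 and 242.2 CPM to 1008, 1396, 2555 and 675.7 CPM (2.85 ± 0.57, edgeR adjusted p = 0.00972). Of 20 proteases 3 were higher and 1 lower (median 0.44), and of 12 inhibitors 3 were higher and 0 lower. The count of higher proteases was 1 without trauma 3 or ligature plus trauma 4 and 6 with the transcript-length trend removed, and that of higher inhibitors 1 without the 3 short-transcript libraries.

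Cytokine genes gave few calls. Of 18 inflammatory cytokine genes, 0 were called higher and 1 lower, Il1f9 (-2.90 ± 0.52, edgeR adjusted p = 0.00566), an interleukin 36 gene of epithelium. Its call was lost without the 3 short-transcript libraries (log2 fold change -2.88, edgeR adjusted p = 0.0796). Il6 was at 0.376, 56.5, 2.67 and 11.3 CPM in trauma and 114.9, 353.7, 116.7 and 119.5 CPM with the ligature. All ligature values exceeded all trauma values, but the trauma libraries spread widely, and Il6 was not called (3.31 ± 1.07, edgeR adjusted p = 0.0894). It was called with limma-voom sample weights (4.54, adjusted p = 0.0101), with the transcript-length trend removed (5.11, limma adjusted p = 0.00698) and without trauma 2 (5.21, edgeR adjusted p = 0.0187). Il1b (1.37 ± 0.52, edgeR adjusted p = 0.149) and Tnf (-0.84 ± 0.57, edgeR adjusted p = 0.465) were not called and overlapped.

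Among chemokines and receptors for monocytes and lymphocytes 6 of 24 rose and 1 fell. The count that rose was 3 without trauma 1, trauma 3, trauma 4, ligature plus trauma 2 or ligature plus trauma 3, and 2 without the 3 short-transcript libraries. Ccl9, a monocyte chemokine that osteoclasts also make, was at 37.6, 117.5, 34.4 and 105.3 CPM in trauma and 342.7, 584.8, 633.2 and 361 CPM with the ligature (2.71 ± 0.44, edgeR adjusted p = 0.00371). Ccr1, a receptor for it, rose by 2.04 ± 0.36 (edgeR adjusted p = 0.00548). Of 20 acute-phase and antimicrobial genes Saa3 rose and Ltf fell. Ltf, lactoferrin, an iron-binding protein of granulocyte precursors and glands, was at 151.7, 938, 244.4 and 721.4 CPM in trauma and 19.4, 1.68, 6.61 and 28.0 CPM with the ligature (-5.21 ± 0.93, edgeR adjusted p = 0.00566), apart in every library. Ltf was the 1 gene called of 11 marrow granulocyte precursor genes, of which 9 had a positive log2 fold change. The median of that list was 1.61, and -0.30 without ligature plus trauma 1. Ptgs1, the constitutive cyclooxygenase, fell by 1.02 (SE 0.18, edgeR adjusted p = 0.00566).

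The macrophage genes moved in both directions. Cd68, a lysosomal protein of macrophages and osteoclasts, was at 70.2, 89.7, 60.3 and 145.8 CPM in trauma and 327.5, 288.7, 378.3 and 331.5 CPM with the ligature (1.86 ± 0.32, edgeR adjusted p = 0.00457). Cd163, the haemoglobin scavenger receptor of resident macrophages, was at 22.3, 15.0, 8.08 and 28.7 CPM in trauma and 4.40, 1.85, 3.79 and 2.43 CPM with the ligature, apart in every library (-2.57 ± 0.42, edgeR adjusted p = 0.00397). Of 20 macrophage genes 3 rose and 2 fell, with a median of 0.20 that turned to -0.74 without the 3 short-transcript libraries and -0.09 without ligature plus trauma 3. The count that rose was 1 without trauma 1, trauma 3 or ligature plus trauma 2. Cd74, the invariant chain of MHC class II, fell by 1.31 (SE 0.22, edgeR adjusted p = 0.00401), 1 of 2 lower among 15 class II genes (1 when any library other than ligature plus trauma 1 was left out). Ighm, the heavy chain of IgM in B cells, fell by 2.00 (SE 0.41, edgeR adjusted p = 0.0107). It was the 1 gene called of 12 B and plasma cell genes, of which 6 had a positive log2 fold change (median 0.16).

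Mature neutrophil genes followed single libraries. Of 17 genes 4 were higher (median 1.44), but the mean list level (log2 CPM minus each gene's mean over the 16 libraries) was 0.31, 2.09, 1.66 and 0.52 in ligature plus trauma 1 to 4. It was -0.32, 0.45, -0.89 and 0.53 in trauma 1 to 4, so ligature plus trauma 1 and 4 lay within the trauma range. Libraries 2 and 3, the high pair, are those with the shift to short transcripts. Without the 3 short-transcript libraries the count was 1 and the median 0.37, while with the transcript-length trend removed the count was 6 and the median 1.40. The count was also 1 without trauma 1, trauma 3, ligature plus trauma 2 or ligature plus trauma 3. In each fit with a count of 1 that gene was Mmp9, which is also in the osteoclast resorption list.

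Genes of endothelial identity and adhesion rose. Of 18 such genes, which include the leukocyte gene Selplg, 11 were higher and 0 lower (median 1.04), and 13 had groups apart. Selp and Selplg were the 2 called in every fit. Selp, P-selectin, the endothelial and platelet protein that captures leukocytes, was at 6.61, 77.4, 33.4 and 51.1 CPM in trauma and 531.1, 317.2, 191.6 and 323.8 CPM with the ligature (3.02 ± 0.58, edgeR adjusted p = 0.00843). Selplg, its leukocyte ligand, rose by 1.47 ± 0.27 (edgeR adjusted p = 0.00703). Of 12 pericyte and smooth muscle genes 1 was higher and 0 lower (median 0.43). That gene, Mcam, an adhesion molecule of pericytes and vessels, was at 18.7, 31.4, 23.4 and 28.5 CPM in trauma and 85.3, 79.1, 88.8 and 79.8 CPM with the ligature (1.71 ± 0.18, edgeR adjusted p = 0.000385). Cdh5, VE-cadherin of endothelial junctions, rose by 1.28 ± 0.27, but was not called without the 3 short-transcript libraries (log2 fold change 0.97, edgeR adjusted p = 0.156). The count fell to 3 without trauma 3, 5 without trauma 1, 6 without ligature plus trauma 4, 7 without ligature plus trauma 3 and 6 without the 3 short-transcript libraries.

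Among the 44 lists, the epithelial lists had the most genes called lower. Of 21 genes of the upper, cornifying epithelial layers 17 were called lower and 0 higher (median -7.22), and of 18 basal and junctional genes 12 were lower (median -2.53). Odam, a protein that the junctional epithelium secretes at the tooth surface, was at 1838, 8142, 7325 and 5296 CPM in trauma and 405.9, 479.2, 378.8 and 428.7 CPM with the ligature, with every ligature library below the lowest trauma library (-3.74 ± 0.49, edgeR adjusted p = 0.0016). Krt13, a keratin of the upper epithelium, was at 1742, 331.2, 5886 and 74.4 CPM in trauma and 33.3, 13.5, 2.11 and 4.50 CPM with the ligature (-7.23 ± 1.53, edgeR adjusted p = 0.0129). The trauma values spread widely, with library 3 highest and library 4 lowest. The call of Krt13 was lost with sample weights in limma-voom (-6.05, adjusted p = 0.0519) and without the 3 short-transcript libraries (-6.74, edgeR adjusted p = 0.155). Lor, loricrin of the cornified envelope, was at 124.8, 25.7, 349.9 and 19.5 CPM in trauma and 1.66, 0.988, 0.395 and 0.123 CPM with the ligature (-7.35 ± 1.61, edgeR adjusted p = 0.0153). Its edgeR adjusted p was 0.0511 without ligature plus trauma 2, 0.0553 without ligature plus trauma 3 and 0.168 without the 3 short-transcript libraries (log2 fold change -7.18), and limma-voom with sample weights gave -6.62 with an adjusted p of 0.276.

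Epithelial RNA differed widely among the trauma libraries. The summed level of the 21 upper-layer genes was 6098, 1589, 17570 and 515.7 CPM in trauma 1 to 4 and 207.7, 119.6, 80.6 and 95.9 CPM in ligature plus trauma 1 to 4. Of the 685 genes called lower, 369 (53.87%) had their highest trauma value in trauma 3, against 28.65% of all tested genes. The part of the sampled epithelium in the falls was not tested. The upper-layer count fell to 3 without ligature plus trauma 3, 4 without ligature plus trauma 2, 6 without trauma 3 and 6 without ligature plus trauma 4, 0 without the 3 short-transcript libraries and 1 with limma-voom sample weights. The upper-layer median stayed low in the last 2 of these fits, at -6.78 and -5.90. The basal count fell to 3, 5, 4 and 4 without ligature plus trauma 2, 3, 4 and trauma 3, and to 2 without the 3 short-transcript libraries (median -2.33). Odam was called in all 17 fits.

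Of 23 cell cycle genes 4 were higher and 0 lower (median 0.80), where 2.21% of all genes were higher, among them Cdk1, the kinase that starts mitosis (1.65, edgeR adjusted p = 0.0157). Cdk1 lost its call without ligature plus trauma 3 and without the 3 short-transcript libraries (1.31, edgeR adjusted p = 0.11), and the list count was 3 or fewer with any 1 library left out, 0 without ligature plus trauma 3, 1 without the 3 short-transcript libraries, 7 with limma-voom sample weights and 9 with the transcript-length trend removed. Of 20 nuclear genes of oxidative phosphorylation 2 were higher (median 0.95); the count was 1 without ligature plus trauma 1 or 4, 0 without any other single library, and 0 without the 3 short-transcript libraries (median 0.10), against 3 with limma-voom sample weights and 7 with the transcript-length trend removed (median 0.87). The list's mean level was 1.14 and 1.44 in ligature plus trauma 2 and 3 and 0.02 and -0.04 in 1 and 4. Of 19 interferon-stimulated genes and 13 mitochondrially encoded genes 0 were called. Of 24 Wnt genes 1 was higher and 4 lower, where 3.27% of all genes were lower. The lower count was 1 without trauma 1, trauma 3, ligature plus trauma 2 or ligature plus trauma 4, 2 without trauma 2 or ligature plus trauma 3, 1 with limma-voom sample weights, 2 with the transcript-length trend removed and 0 without the 3 short-transcript libraries. Of 23 TGF-beta and BMP genes 0 were higher and 3 lower (1 lower without the 3 short-transcript libraries). The other lists, of collagens, NF-kappa-B feedback, hypoxia, stress, stretch and early response, complement, iron, lymphocytes and precursors, each had at most 2 calls. With the transcript-length trend removed the higher counts were 6 for complement, 6 for endoplasmic reticulum stress and 4 each for iron handling, NF-kappa-B feedback and fibrillar collagen. Col1a2 (-0.86, adjusted p = 0.00409) and Col1a1 (-0.79, 0.0106), not called in the main fit, were called lower with DESeq2. Limma-voom sample weights also called both lower (adjusted p = 0.0379 and 0.0412). The collagen list's summed level, in which the most abundant genes weigh most, was 37530 to 58490 CPM in trauma and 26240 to 35600 CPM with the ligature. Of its 20 genes 1 was called higher and 0 lower, and 10 had a positive log2 fold change (median -0.02). The mean list level overlapped, at -0.48 to 0.19 in trauma and -0.25 to 0.04 with the ligature.

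Markers of other tissues that a sample could hold were also counted. Of 21 skeletal muscle genes 0 were called, with a median of 3.19 and 18 positive. The mean list level was -1.92, -2.52, -0.59 and -1.73 in trauma 1 to 4 and 1.28, 2.01, -1.69 and 1.24 in ligature plus trauma 1 to 4, so library 3 was as low as trauma. Mal, a myelin and lymphocyte membrane protein also made by epithelium, fell from 110.2, 242.1, 358.3 and 278.5 CPM to 38.2, 30.5, 25.3 and 33.3 CPM (-2.96 ± 0.45, edgeR adjusted p = 0.00271), the 1 of 17 Schwann cell and nerve genes called. Gdf10, a BMP-family ligand, fell by 2.93 (SE 0.53, edgeR adjusted p = 0.00576). Frzb, a secreted Wnt antagonist, fell by 2.33 (SE 0.41, edgeR adjusted p = 0.00475), not called without the 3 short-transcript libraries (-2.06, edgeR adjusted p = 0.0744).

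**Figure D3:**
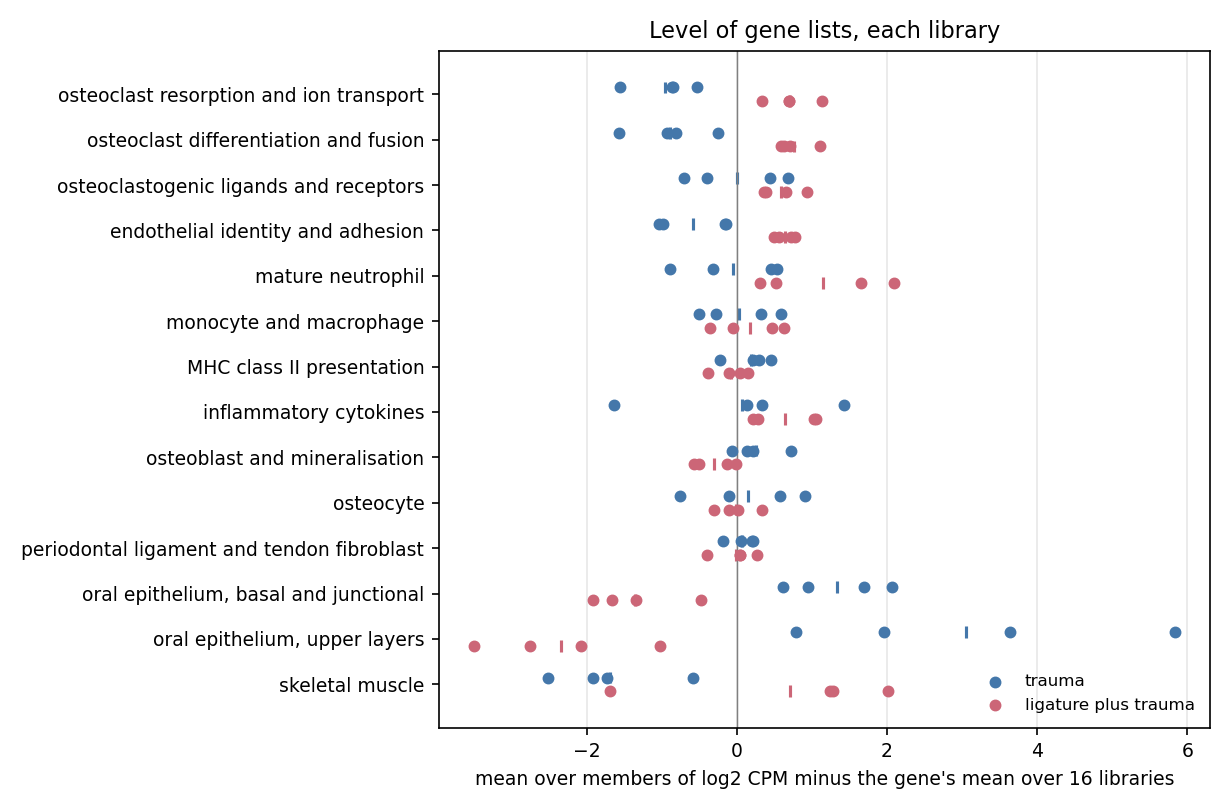
Mean over a list's members of log2 CPM minus each gene's mean over 16 libraries, 1 point per library, blue for trauma and red for ligature plus trauma, with a tick at the group mean. The lists of osteoclast resorption, osteoclast formation, and endothelial identity and adhesion are apart upward, and both epithelial lists apart downward. The cytokine, macrophage, osteocyte and ligament fibroblast lists overlap.

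The ligature was also placed on teeth without resin, and that effect (ligature minus control) compares none of the 8 libraries above. Both effects come from the same fit of 16 libraries, so they share its scaling and its estimate of the spread. There 1233 genes were higher (5.88%) and 1001 lower (4.78%). Of the 464 genes higher here, 386 (83.19%) were also higher there, which is 31.31% of the genes higher there. Of the 685 lower here, 379 (55.33%) were also lower there, which is 37.86% of those. Across genes, which are not independent replicates, the log2 fold changes of the ligature effects had Pearson's r = 0.5485 and Spearman's rho = 0.6065, both descriptions. Of the genes called in both, the median absolute log2 fold change was 1.83 here and 2.1 there.

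A test of the difference between the ligature effects, (ligature plus trauma minus trauma) minus (ligature minus control), called 0 genes in edgeR (0%). At an unadjusted p under 0.05 it gave 1032 genes, and DESeq2 called 68. Saa3 had the lowest p: its log2 fold change was 6.99 ± 0.84 over trauma and 13.81 ± 1.09 over control, a difference of -6.83 ± 1.02 (edgeR adjusted p = 0.1078). The Saa3 difference was called with DESeq2 (-6.86, adjusted p = 2.14e-09), with the transcript-length trend removed (-6.85, limma adjusted p = 0.0157), without the 3 short-transcript libraries (-7.80, edgeR adjusted p = 0.0315) and without ligature plus trauma 3 (-7.57, edgeR adjusted p = 0.0396). Il6 differed by -6.06 ± 1.62 in the same direction (edgeR adjusted p = 0.732), with log2 fold changes of 3.31 with trauma and 9.37 without. Ctsk (2.23 and 2.11), Tcirg1 (2.21 and 2.39) and Dcstamp (3.19 and 2.94) had differences between the effects of 0.12 ± 0.54, -0.18 ± 0.36 and 0.25 ± 0.63. Bglap had log2 fold changes of -1.17 with trauma and -2.61 without (difference 1.45 ± 0.51, edgeR adjusted p = 0.969). A miss of the threshold does not show that the effects were the same.

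The starting levels differed for Saa3, which was at 0.517 ± 0.309 CPM (SD, n = 4) in control against 73.5 ± 48.3 CPM in trauma. Whether the starting level bears on the difference between the ligature effects was not tested.

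**Figure D4:**
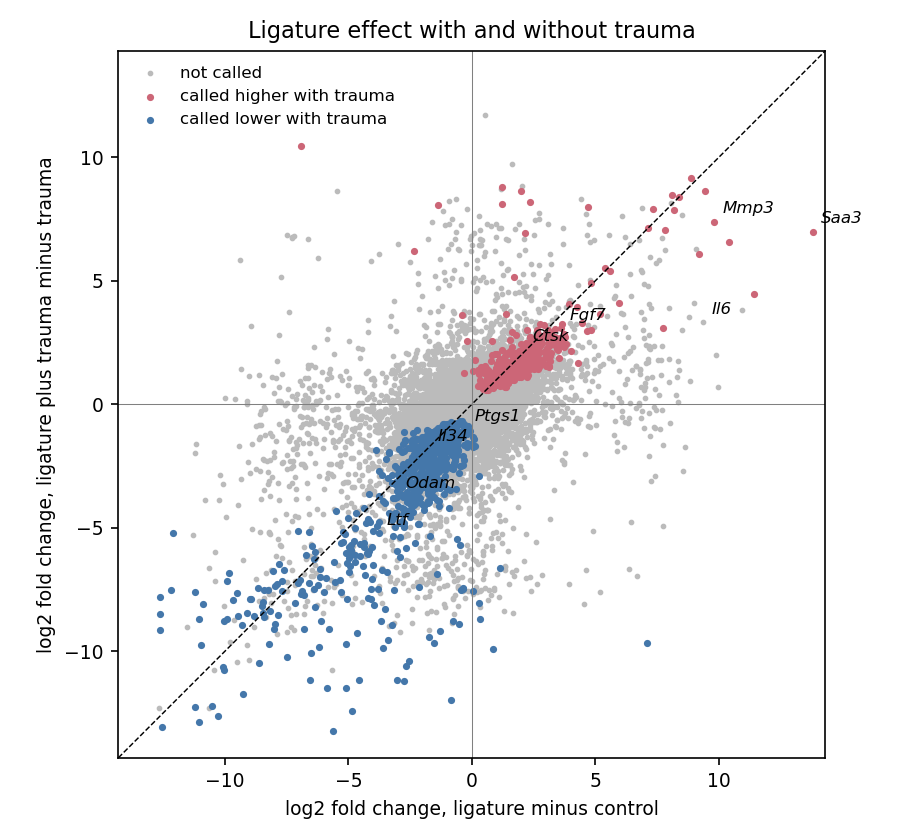
Log2 fold change of each tested gene for the ligature with trauma (vertical) against without trauma (horizontal), red and blue for genes called higher and lower with trauma, grey for the rest; the dashed line marks equal effects. Saa3 and Il6 lie below the line and Ctsk and Fgf7 near it.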

How the data were processed

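The authors deposited raw read counts in 1 table of 55359 genes by 16 libraries; 32711 genes had any count, and genes with no symbol held 0.205% of the counts. Per the submitters' processing notes, the tools were HISAT2 2.2.1, StringTie 2.1.7, DESeq2 1.32.0, FastQC 0.11.9 and Trimmomatic 0.39, and the build was GRCm39. The sources used here do not give their roles, the counting tool or the strand setting, so overlapping and antisense genes cannot be told apart.

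All 16 libraries entered 1 edgeR 4.0.16 quasi-likelihood fit (R 4.3.3) with group as the only term, trimmed-mean scaling, edgeR's expression filter (minimum count 10) and 12 residual degrees of freedom; 20953 genes were tested. SE is the log2 fold change over the square root of F. Alternatives were DESeq2 1.42.0, its size factors in edgeR, no filter, a stricter filter (50 counts in 4 libraries), the 8 libraries alone, a replicate block, limma-voom 3.58.1 with sample weights, removal of a transcript-length trend by a spline with 5 degrees of freedom (lengths for 99.66% of tested genes), and leaving libraries out. The scripts were tested on simulated data.

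Genes named are, from the called genes with mean log2 CPM of at least 2 and groups apart, the 10 largest folds each way without predicted genes, up to 4 lowest-p members of each of 44 lists (any osteoclast, osteoclast-signal or bone-formation member), and a panel of 17 genes. The comparison, lists and rule were chosen with earlier results of these data known. Near-identical genes such as Bglap and Bglap2 are uncertain one by one. Promoters are RefSeq on GRCm38.p6, and no other coordinates are given, since the submitters' notes name another build, GRCm39.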

Additional observations from a re-analysis of the deposited data

Results flagged for a closer look

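In 158 groups of 4 libraries (35 genes and 44 lists in each of the 2 groups), 6 had 1 library farther from the others than Dixon's 95% limit for the gap over the range. Chance gives such a mark to about 1 group in 20 when values spread normally, so 6 of 158 is not above that rate. A normal spread was not checked for these values.

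In trauma 3, Lce3e was at 385.5 CPM against 13.1 to 55.8 CPM in the other trauma libraries, and Lce3f at 528.1 against 20.6 to 94.7 CPM; both are late cornified envelope genes. In ligature plus trauma 1, Rptn, repetin of the cornified envelope, was at 2.553 CPM against 0 to 0.131 CPM, and Lce3e at 1.491 against 0.317 to 0.338 CPM. Lce3e, Lce3f and Rptn lost their calls with limma-voom sample weights (adjusted p = 0.269, 0.2119 and 0.3089). They also lost them without the 3 short-transcript libraries (edgeR adjusted p = 0.1865, 0.1683 and 0.1729). Lce3e and Rptn were not called without ligature plus trauma 2 or 3, nor Lce3e without ligature plus trauma 4. In ligature plus trauma 2, Il6 was at 353.7 CPM against 114.9 to 119.5 CPM. The mean level of 20 hypoxia and glycolysis genes was -0.33 in ligature plus trauma 2 against -0.09 to -0.06 in the other 3 libraries.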

How the results depend on the processing

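The count of 1149 called genes (464 higher, 685 lower) became 2165 with DESeq2 (854 and 1311), 2132 with the transcript-length trend removed (1301 higher) and 403 without the 3 short-transcript libraries (246 and 157), and 426 genes were lower with limma-voom sample weights. With 1 library left out it ran from 565 (without ligature plus trauma 3) to 1000 (without trauma 4), with 226 to 405 higher and 294 to 612 lower. Other filters, size factors, the 8 libraries alone and limma-voom gave totals of 896 to 1243. The difference between ligature effects, 0 genes, became 68 with DESeq2, 1 with the length trend removed and 2 without the 3 short-transcript libraries, and 0 to 2 with 1 library left out. No called value changed direction in these fits. The fit of 8 libraries could not be applied to the difference. The cause of each move was not tested.

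The labels number replicates 1 to 4 in each group. Deviations of same-numbered trauma and ligature plus trauma libraries correlated at 0.045, -0.032, 0.078 and -0.029. Other pairs ran from -0.117 to 0.094. Whether the numbers mark a pairing cannot be told from so few values. A replicate block gave 1032 calls (436 higher, 596 lower) and 0 for the difference. At 58458102 counts or more per library, the lowest levels, such as the 0.123 CPM of Lor in ligature plus trauma 4, rest on few reads.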
